A study of Mus musculus with 2 samples.

Results

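The genes described here are the core of the β-catenin destruction complex and the TCF factors that β-catenin binds in the nucleus. They are Ctnnb1, which encodes β-catenin itself, the scaffold genes Apc and Axin1, the kinase genes Gsk3a, Gsk3b and Csnk1a1, the ubiquitin ligase subunit gene Btrc, and the transcription factor genes Tcf7l1 and Tcf7l2. They were chosen by name from the pathway, with earlier results of these data known, and a probe was taken where the gene name on the array equalled one of these symbols. This gave 9 of the 37074 gene names and 27 of the 56605 probes on the array.

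The RNA came from mDE6, a mouse odontogenic epithelial cell line, and was hybridised with the single dye Cy3 to Agilent gene expression arrays. Control cells and cells treated for 6 h with CHIR99021, an inhibitor of GSK-3 that activates the β-catenin pathway, were each measured on 1 array. The number of arrays limits the precision, so the differences have no check between replicates and no p-value is given. Each member probe was printed once per array, and as the arrays shared a slide, the condition and the place on the slide cannot be told apart. The labels give the dose as 5 mM where the paper's methods use μM with the same figure, and they give the control a DMSO vehicle (0/1%) where the methods call it untreated. No strain, clone number or passage of the line is given in the sources used here.

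In resting cells, Axin and APC hold β-catenin so that CK1α can prime it and GSK-3 can phosphorylate it further, after which the β-TrCP ligase marks it for the proteasome. When GSK-3 is blocked, β-catenin escapes destruction, enters the nucleus and binds TCF/LEF factors at Wnt target genes. This control acts on the β-catenin protein, whereas the arrays measured messenger RNA. In the tooth germ the pathway is known for its activity in the enamel knot, the epithelial signalling centre.

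Of the sequences behind the results 3 sets are shown, 2 of array probes, which say what each measurement can report, and 1 of promoter stretches. The first set holds 60-base probes that lie in coding sequence, so that each reports a named domain of its protein or, for 1 Tcf7l2 probe, a stretch between domains. The domains are given as background and were not searched for. Positions are in mm9, and the strand is that of the gene. The Ctnnb1 probe at chr9:120860495-120860554 (plus strand) lies in the armadillo repeats. The Gsk3b probe lies in the kinase domain and joins sequence on both sides of an intron, from chr16:38187987-38191632 (plus strand). The Btrc probe lies in the WD40 repeats, which hold phosphorylated β-catenin, and also spans an intron, from chr19:45590587-45591553 (plus strand). The first Tcf7l2 probe, at chr19:55982975-55983034 (plus strand), lies between the β-catenin-binding end and the HMG box, and the second, at chr19:55994029-55994088 (plus strand), lies in the HMG box that contacts DNA.
Ctnnb1, armadillo repeats: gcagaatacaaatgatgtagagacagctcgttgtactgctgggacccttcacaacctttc
Gsk3b, kinase domain: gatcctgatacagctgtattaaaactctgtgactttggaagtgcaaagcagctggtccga
Btrc, WD40 repeats: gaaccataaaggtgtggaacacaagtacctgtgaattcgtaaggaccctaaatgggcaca
Tcf7l2, before the HMG box: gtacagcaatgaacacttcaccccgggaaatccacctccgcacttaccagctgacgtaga
Tcf7l2, HMG box: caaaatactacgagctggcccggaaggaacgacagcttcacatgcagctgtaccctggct

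The second set shows the last 30 bases of 3 probes that hold AATAAA, the usual polyadenylation signal, given in capitals. Such a probe reports transcripts that reach that far. The only Tcf7l1 probe on the array is one of them and lies at chr6:72576377-72576436 (minus strand). The Gsk3a probe lies at chr7:26013279-26013338 (minus strand) and the Gsk3b probe at chr16:38246094-38246153 (plus strand). AATAAA was present in 4 of the 27 member probes and in 9.77% of all probes on the array.
Tcf7l1, last bases: tattttcacaagagaaAATAAAattacagt
Gsk3a, last bases: ctgttcAATAAAttattggcatgaaaccct
Gsk3b, last bases: ggtcatgtgactgctgcttcAATAAAgaca

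The third set shows where the TCF core motif CTTTGA occurs near the start sites of these genes and of their close relatives. Both strands were searched from 250 bases before to 50 bases after the start site, in RefSeq promoters of GRCm38.p6. The table held 7 promoters of 5 members, and 2 of them matched, 1 of Gsk3a and 1 of Gsk3b. Of 12 promoters of the 5 related genes named further on, 1 matched, that of Lef1, with 2 occurrences. The motif is present in 16.0% of the 32851 promoters in the table, and the longer form CTTTGAT, which contains it, in 3.73% of them and in none of the promoters of these genes. A match is a description of the letters and not of a binding site, and the Tcf7l1 promoter was among those without the letters in this window. In each line below the capitals mark the motif, read here on the other strand as TCAAAG, and the occurrences lie 180 and 120 bases before the Lef1 start, 157 before the Gsk3a start and 77 before the Gsk3b start.
Lef1, chr3:131156105-131156128, plus strand: aatacatggTCAAAGgaaaatagg
Lef1, chr3:131156165-131156188, plus strand: tgtctgttcTCAAAGtcaggtctt
Gsk3a, chr7:25237994-25238017, minus strand: ctgtgttttTCAAAGtgcttccaa
Gsk3b, chr16:38088915-38088938, plus strand: ctccccgccTCAAAGagggagggg

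Signals are background-subtracted spot intensities as deposited. Ratios are CHIR99021 over control after each array was divided by its 75th percentile, which was 486.7 in control and 469.17 after CHIR99021. A spot counts as measured where the scanner software marked it well above background, which held for 49.8% of 59305 spots in control and 48.3% after CHIR99021, with no spot saturated. The value after ± is the error of the log2 ratio from the scanner software's error model and covers signal measurement only. As a measure of spot-to-spot error, 282 probes printed 10 times had a median SD of the log2 ratio of 0.03. The criteria were a ratio of at most 0.66 with a Z-score of at most -2, or a ratio of at least 1.5 with a Z-score of at least 2. The Z-score set a log2 ratio against the 500 probes nearest in mean signal. Where a gene had several probes, its value is that of the probe with the highest mean signal, called its brightest probe. Of the 1277 probes on the array that differed by over 4-fold, 92.9% lay in the later rows, after row 192 of 384, where 52.1% of tested probes and 13 of the 27 member probes were.

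The labelled cell type was set against marker genes. Of 8 epithelial markers, Cdh1, Epcam and Krt8 were not well above background on either array. Krt14 had signals of 48.5 in control and 54.6 after CHIR99021, and Trp63, a regulator of stratified epithelia, had 2306 and 2896 at its brightest probe. A second Trp63 probe went the other way, with 77.1 in control and 5.58 after CHIR99021, where it was not well above background, at least 2.83-fold lower. Cldn7 was measured on both arrays and Krt18 in control alone. Krt5, the basal keratin gene, was not well above background in control and was at least 7.24-fold higher after CHIR99021, at a spot in row 379 whose pixels were uneven after CHIR99021 (SD over mean 0.323, where 0.261 is the 99th percentile). Of the dental epithelial markers, Dlx2 and Msx2 were measured, with ratios of 0.637 for Dlx2 and 1.14 for Msx2, and the enamel genes Amelx, Ambn, Enam and Amtn and the regulator Sp6 were not. Of 8 mesenchymal markers 7 were measured on both arrays, and Vim, an intermediate filament gene, had 52302 in control and 45883 after CHIR99021, while Twist1 had a ratio of 1.55. Control signals of the others were 270783 for Col1a2, 122887 for Col1a1, 14806 for Prrx1, 9993 for Col3a1 and 1018 for Pdgfra, and Twist1 had 647. Trp63, at 2306, had the highest control signal among the epithelial markers. The leukocyte marker Ptprc was measured at 1 of its 7 probes, with 1709 in control and 1764 after CHIR99021, the endothelial marker Cdh5 and the globin gene Hbb-b1 at none, and Pecam1 in control alone. The list medians of the log2 ratio were 0.22 for the epithelial and -0.11 for the mesenchymal markers. The part of these markers in the results below was not tested.

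Tcf7l1 was the member that met both criteria, and it was lower after CHIR99021. No other member met them in either direction, so 1 of 9 members did, against 5.84% of the 18837 genes tested, 3.22% as lower and 2.63% as higher. By the ratio alone it was again 1 of 9, against 17.7% of genes, 9.67% as lower and 8.05% as higher. As each member was measured on both arrays, the nearer background is the 16886 genes that were too, of which 4.25% met both criteria and 10.8% the ratio alone. The 7 genes of the destruction complex and β-catenin had ratios from 0.686 to 1.16, and 6 of the 7 lay within 0.25 of 0 on the log2 scale, as did 58.1% of genes measured on both arrays. The median log2 ratio of the 9 members was 0.0013, and that of all genes tested was 0.02. Of the 27 probes 23 were measured on both arrays, 1 in control alone and 3 on neither.

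**Figure D1:**
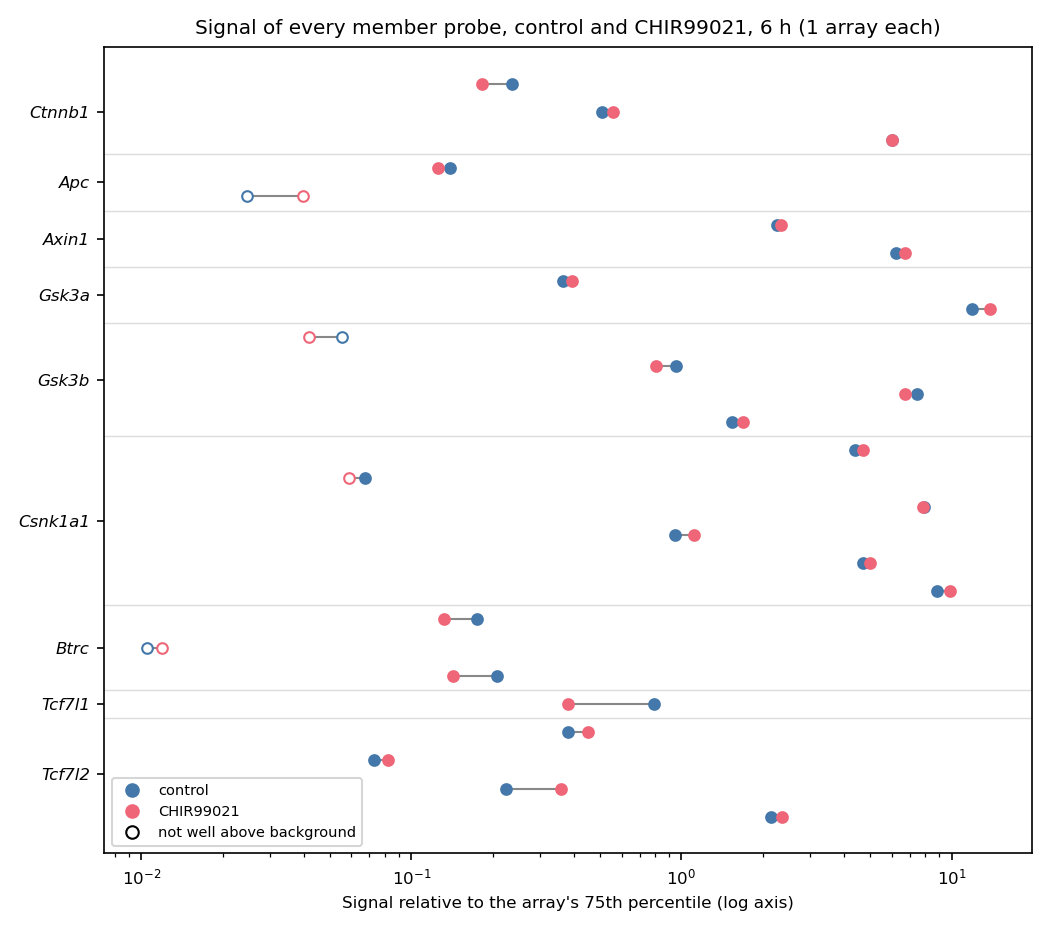
Signal of each of the 27 member probes divided by the 75th percentile (log axis), in control and after CHIR99021, with 1 array each and open circles where a spot was not well above background. Tcf7l1 shows the widest gap among probes measured on both arrays, from 384 to 179 before scaling, while the pairs of Axin1, Gsk3a and Csnk1a1 lie close together. Distances between probes compare oligonucleotides and not transcripts.

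Ctnnb1 encodes β-catenin, the protein that the complex destroys and that TCF factors need to switch on their targets. Its brightest probe, at chr9:120869274-120869333, had 2927 in control and 2824 after CHIR99021, a ratio of 1.00 and a log2 ratio of 0.00 ± 0.20. The armadillo probe shown above had 115 and 85.7, a ratio of 0.772 and a log2 ratio of -0.37 ± 0.24. The third probe, designed to another transcript record, had 247 and 263, a ratio of 1.10 and a log2 ratio of 0.14 ± 0.21. The 3 probes thus gave values on both sides of 0 and none was past the ratio limits. At the brightest probe the sign of so small a log2 ratio turned with the scaling, and over all settings that were tried the gene's ratio ranged from 0.772 to 1.05. Among genes measured on both arrays, 45.1% had a lower log2 ratio than Ctnnb1.

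Apc and Axin1 encode the scaffolds that bring β-catenin to its kinases. The Apc probe that was measured, which spans an intron on chromosome 18, had 67.7 in control and 58.7 after CHIR99021, a ratio of 0.900 and a log2 ratio of -0.15 ± 0.28. A second Apc probe, to another transcript record, had 12.0 and 18.6 and was well above background on neither array. Both Apc signals were dim, and the difference at the measured probe was smaller than its measurement error. The Axin1 probes, at chr17:26332666-26332725 and chr17:26332106-26332165, had 3033 and 3165 (ratio 1.08, log2 ratio 0.11 ± 0.20) at the brightest and 1097 and 1100 (ratio 1.04, log2 ratio 0.06 ± 0.20) at the other. Both Axin1 probes were close to equal on the arrays, and they differed from each other by 0.06 on the log2 scale. Of genes measured on both arrays, 27.4% had a lower log2 ratio than Apc and 61.9% than Axin1.

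Gsk3a and Gsk3b encode the closely related kinases that CHIR99021 inhibits. At its brightest probe, the one whose last bases are shown above, Gsk3a had 5809 in control and 6502 after CHIR99021, a ratio of 1.16 and a log2 ratio of 0.22 ± 0.20. Its other probe had 177 and 185, a ratio of 1.08. Both Gsk3a probes were thus slightly higher after CHIR99021, by about the size of the measurement error or less.

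The brightest Gsk3b probe, at chr16:38241177-38241236, had 3640 in control and 3168 after CHIR99021, a ratio of 0.903 and a log2 ratio of -0.15 ± 0.20. The kinase-domain probe had 464 and 378, a ratio of 0.846 and a log2 ratio of -0.24 ± 0.21. The probe at the 3′ end had 746 and 793, a ratio of 1.10 and a log2 ratio of 0.14 ± 0.20. The Gsk3b probes therefore disagreed in sign, with a distance of 0.38 between the lowest and the highest log2 ratio. A probe to another Gsk3b transcript record had 27.0 and 19.7 and was well above background on neither array. Whether the kinase genes differ from each other in their response has no test with these arrays, and neither gene was past the ratio limits at any measured probe.

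Csnk1a1 encodes CK1α, the kinase that primes β-catenin for GSK-3, and had the most probes of any member, 6, all on chromosome 18. Its brightest probe had 4296 in control and 4624 after CHIR99021, a ratio of 1.12 and a log2 ratio of 0.16 ± 0.20. The other 4 probes measured on both arrays had signals of 2143 and 2204, of 3833 and 3673, of 460 and 521, and of 2295 and 2333. Over these 5 probes the log2 ratio ranged from -0.01 to 0.23, the narrowest range among the members with 3 or more probes measured on both arrays. The remaining probe, to a predicted transcript, had 32.8 in control and 27.6 after CHIR99021, where it was not well above background. For that probe the ratio as computed was 0.872, or 1.15-fold lower. Its log2 ratio was -0.20 ± 0.45, smaller than the measurement error.

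Btrc encodes β-TrCP, the F-box protein that recognises phosphorylated β-catenin and recruits the ubiquitin ligase. Its brightest probe, at chr19:45607701-45607760, had 101 in control and 66.8 after CHIR99021, a ratio of 0.686 and a log2 ratio of -0.54 ± 0.25. The WD40 probe shown above had 84.8 and 61.8, a ratio of 0.756 and a log2 ratio of -0.40 ± 0.26. Both probes were lower after CHIR99021 by more than their measurement error, and neither reached the ratio limit of 0.66. The brightest probe lay in row 336, in the later rows, and its 3 adjacent probes had a median log2 ratio of -0.43. The WD40 probe lay in row 86, in the earlier rows, and its 6 adjacent probes had a median of -0.04. Btrc was the member nearest to that limit from the side that does not pass, with a Z-score of -0.76, and 6.91% of genes measured on both arrays had a lower log2 ratio. Its remaining probe, to a cDNA record, had 5.09 and 5.59 and was well above background on neither array.

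Tcf7l1, also called Tcf3, encodes a TCF factor best known as a repressor of Wnt targets when β-catenin is absent. Its only probe had 384 in control and 179 after CHIR99021. After scaling the ratio was 0.484 and the log2 ratio -1.05 ± 0.21, and the Z-score was -2.24. The difference was larger than the measurement error, and 1.55% of genes measured on both arrays had a lower log2 ratio. The spot lay in row 144, in the earlier rows, and none of the 47 spots within 3 rows and columns differed by over 4-fold. The 4 adjacent probes had a median log2 ratio of 0.07. The pixels of the spot were even, with an SD over mean of 0.151 in control and 0.173 after CHIR99021. The ratio ranged from 0.466 to 0.552 over all settings, and both criteria were met in 15 of 16. Scaling by 1 factor per array and the choice among probes cannot change the Z-score of a gene with 1 probe. Those settings are therefore no separate check of the Z-score. The setting that did not meet them was a Z-score taken from 1 mean and SD over all probes. As the gene has 1 probe, near the 3′ end, no second probe bears on the value.

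Tcf7l2, also called Tcf4, encodes the TCF factor that works mostly as an activator with β-catenin. Its brightest probe, at chr19:56007586-56007645, had 1042 in control and 1107 after CHIR99021, a ratio of 1.10 and a log2 ratio of 0.14 ± 0.20. The probe at chr19:55817272-55817331, nearest to the 5′ end, had 185 and 211, a ratio of 1.18. The probe before the HMG box had 35.5 and 38.5, a ratio of 1.13 and a log2 ratio of 0.17 ± 0.36. These 3 probes lay between 0.14 and 0.24 on the log2 scale and none was past the ratio limits.

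The HMG box probe of Tcf7l2 stood apart from the other 3. It had 109 in control and 168 after CHIR99021, a ratio of 1.60 and a log2 ratio of 0.68 ± 0.22. At a Z-score of 1.31 it was past the ratio limit but not the Z-score limit, and it was 1 of 2 member probes past the ratio limits among 24 tested, against 17.9% of all tested probes. The probe is matched to another RefSeq transcript than the brightest probe. Under normexp background correction with quantile normalization its log2 ratio was 0.45, below the limit. Whether the probes report different splice forms was not tested.

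**Figure D2:**
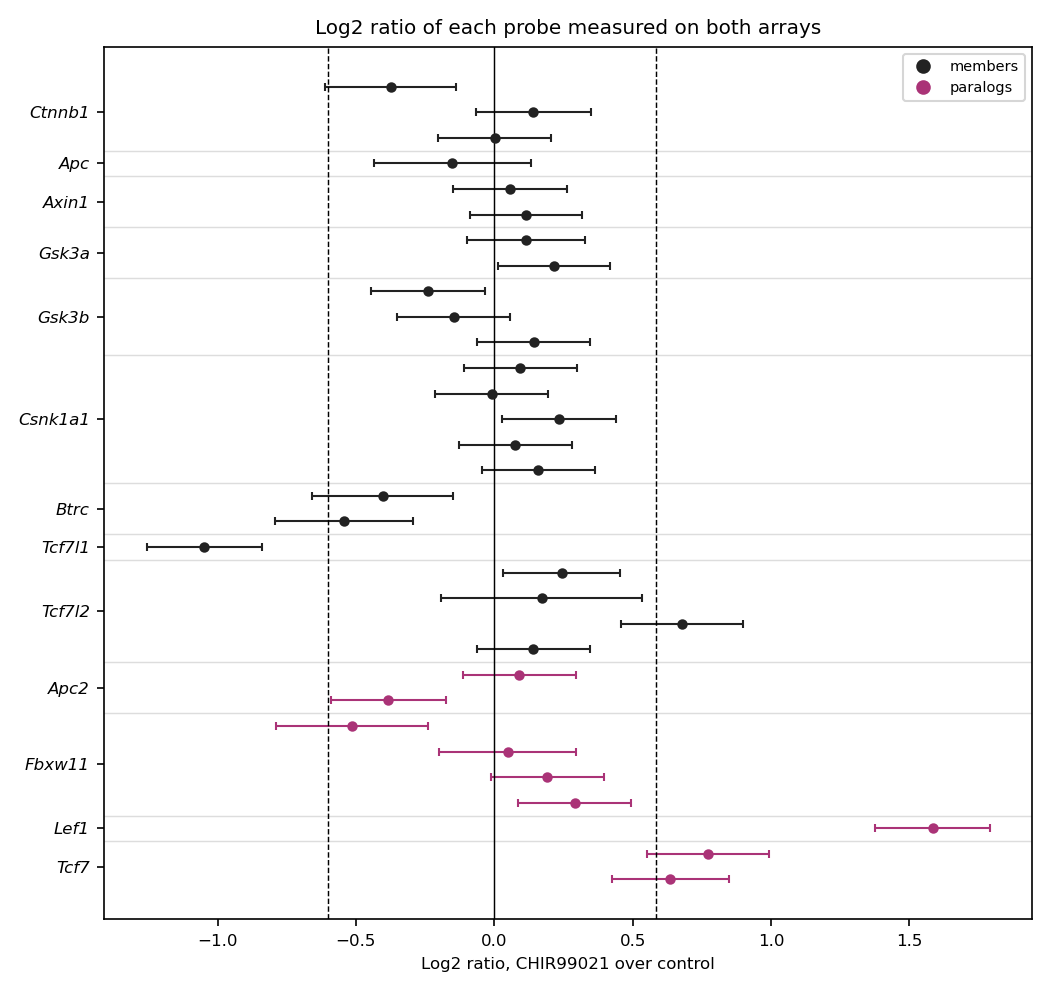
Log2 ratio, CHIR99021 over control, of each member and paralog probe measured on both arrays, with bars for the scanner software's measurement error and dashed lines at the ratio limits of 0.66 and 1.5. Tcf7l1 at -1.05 lies past the lower line, and Lef1 at 1.58, both Tcf7 probes and 1 of 4 Tcf7l2 probes lie past the upper line.

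The members were next set beside 5 paralogs, genes of the same families. Lef1 and Tcf7 complete the TCF/LEF family, and both are known Wnt targets. Lef1 had 239 in control and 690 after CHIR99021, a ratio of 2.997 and a log2 ratio of 1.58 ± 0.21. Its Z-score was 4.05, and the gene met both criteria, in 14 of the 15 settings that gave it a value. As for Tcf7l1, scaling by 1 factor per array and the choice among tested probes could not change this Z-score. With 1 mean and SD over all probes the Z-score of Lef1 was 1.74, and with the earlier rows alone it had no tested probe. Its spot lay in row 294, in the later rows, and 6 of 45 spots within 3 rows and columns differed by over 4-fold, while the 8 adjacent probes had a median log2 ratio of -0.68. The other 2 Lef1 probes were not well above background on either array. Tcf7 had 180 and 270 at its brightest probe (ratio 1.55, log2 ratio 0.64 ± 0.21) and 122 and 201 at another (ratio 1.71, log2 ratio 0.77 ± 0.22). Both Tcf7 probes were past the ratio limit with Z-scores of 1.45 and 1.57, under the limit of 2. The brightest probe fell below the ratio limit with no scaling (1.498), with the percentile over probes measured in both conditions (1.4997) and with normexp (1.39). Its remaining probe was well above background on neither array. The 4 TCF/LEF genes thus had log2 ratios of -1.05 (Tcf7l1), 0.14 (Tcf7l2), 0.64 (Tcf7) and 1.58 (Lef1) at their brightest probes. These signs were the same under every scaling tried.

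Axin2, a scaffold like Axin1 and a widely used Wnt feedback target, had 7.23 in control, which was not well above background, and 37.9 after CHIR99021. Its ratio is therefore a limit, at least 1.66-fold higher, and the ratio as computed was 5.43 with a Z-score of 0.91. The spot lay in row 312, in the later rows, and 3 of 47 spots within 3 rows and columns differed by over 4-fold. None of its adjacent probes was well above background on either array. Under normexp and quantile normalization Axin2 had a ratio of 1.39, below both the bound of 1.66 and the ratio limit, whereas with 1 mean and SD over all probes its Z-score was 2.69 and it met both criteria.

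Apc2 and Fbxw11 are the relatives of Apc and Btrc. Apc2 had 49489 in control and 50779 after CHIR99021 at its brightest probe, which targets a transcript record outside RefSeq, a ratio of 1.06. At the Apc2 probe in the RefSeq transcript it had 350 and 259, a ratio of 0.767, so that the Apc2 probes disagreed in sign. Fbxw11 had 7241 and 8538 at its brightest probe, a ratio of 1.22, and log2 ratios from -0.52 to 0.29 over its 4 probes. Neither gene was past the ratio limits at any probe.

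**Figure D3:**
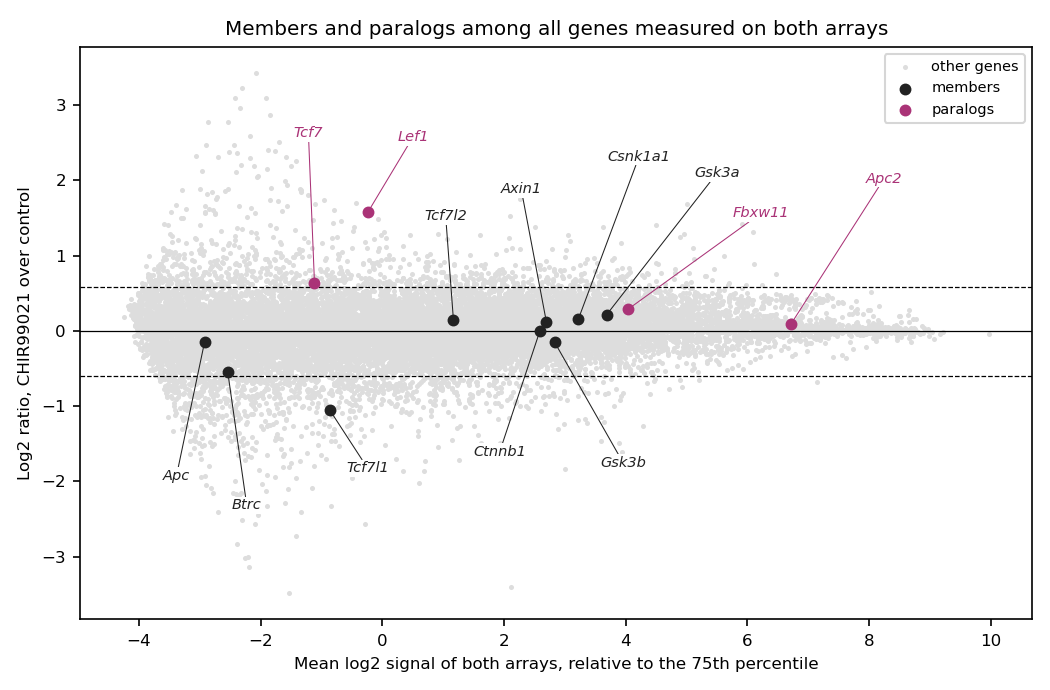
Log2 ratio against mean log2 signal relative to the 75th percentile for the 16886 genes measured on both arrays (grey), with members in black and paralogs in purple, and dashed lines at the ratio limits. The destruction complex genes lie between the dashed lines, with Btrc nearest to the lower line at a ratio of 0.686, while Tcf7l1 lies below the lines and Lef1 above them.

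The 3 lists of partners put the members in the wider pathway. These lists, like the members, were drawn up with earlier results of these data known, and their counts are descriptions.

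The partners of the destruction complex were 30 genes for casein kinase 1 forms, the ubiquitin ligase core, the phosphatase PP2A, GSK-3-binding proteins, Dishevelled proteins, tankyrases and related regulators. Of these 29 were tested, 1 met both criteria as lower and 0 as higher, near the 3.22% and 2.63% of all genes tested, and the median log2 ratio was -0.03 against 0.02 over all genes tested. The one that met them was Amer1, also called Wtx, which binds β-catenin and the scaffolds at the membrane. Amer1 had 475 in control and 246 after CHIR99021 at its only probe, a ratio of 0.536 and a log2 ratio of -0.90 ± 0.21. The Z-score was -2.11. Amer1 had no call with 1 mean and SD. By the ratio alone 3 genes were lower, against 9.67% of all genes tested, namely Amer1, the deubiquitinase gene Usp9x (520 and 306, ratio 0.611) and the GSK-3-binding gene Frat2. Frat2 was measured in control alone, with a limit of at least 1.05-fold lower. Its log2 ratio as computed was -0.81 ± 0.61, so that limit is smaller than the measurement error. The highest ratio on the list was that of Dvl1, a Dishevelled gene, with 2641 and 3397 and a ratio of 1.33. Rbx1, the RING subunit of the ligase and the gene with the highest signal on the list, had 18052 and 17270, a ratio of 0.992. At this share of calls the list did not stand out from all genes.

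The nuclear partners were 27 genes for co-activators, co-repressors and inhibitors of β-catenin and TCF. Of these 26 were tested, all on both arrays, and 1 met both criteria as lower and 0 as higher, where 4.25% of genes measured on both arrays did so in either direction. The median log2 ratio was -0.06. That gene was Hbp1, an HMG-box repressor known to bind TCF4 and restrain Wnt targets. Hbp1 had 1775 in control and 626 after CHIR99021, a ratio of 0.366 and a log2 ratio of -1.45 ± 0.20. The Z-score was -4.46. A second Hbp1 probe had 63.1 in control and 12.0 after CHIR99021, where it was not well above background. With 1 mean and SD, or with the probe farthest from 0, Hbp1 did not meet both criteria. By the ratio alone 2 genes were lower and 1 higher, where 10.8% of genes measured on both arrays were past it in either direction. Besides Hbp1 the β-catenin antagonist gene Cby1 was lower (250 and 155, ratio 0.645), at a spot in row 381. The Groucho-family co-repressor gene Tle4 was higher at its brightest probe (320 and 470, ratio 1.52), in row 288. Both spots were in the later rows. A second Tle4 probe went the other way, with 43.1 in control and 25.2 after CHIR99021, where it was not well above background, at least 1.58-fold lower. Of the same family, Tle1 had a ratio of 1.45, Tle2 of 0.846 and Tle3 of 1.19. Aes, a short member of that family with the highest signal on the list, had 36846 and 31845, a ratio of 0.897.

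The cadherin and catenin partners share β-catenin at cell junctions, and 15 of 16 listed genes were names on the array. Of these 10 were tested and 8 measured on both arrays, and 0 met both criteria in either direction, against 5.84% of all genes tested. In a list of 10 a count of 0 says little. The median log2 ratio was -0.21, or -0.12 over the 8. Cdh1, the gene of the main epithelial cadherin, was among the 5 not tested. Cdh3, which encodes P-cadherin, had the lowest ratio measured on both arrays, with 649 in control and 381 after CHIR99021, a ratio of 0.609 and a Z-score of -1.90. Jup, which encodes the β-catenin relative plakoglobin, was measured in control alone, at least 1.12-fold lower. Its log2 ratio as computed was -1.09 ± 0.65, so that limit is smaller than the measurement error. Mllt4, the afadin gene under its name on the array, had the highest ratio, 1.44, from signals of 52.7 and 73.1. Ctnna1, which encodes the α-catenin that links β-catenin to actin, had 11596 and 9403, a ratio of 0.841.

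**Figure D4:**
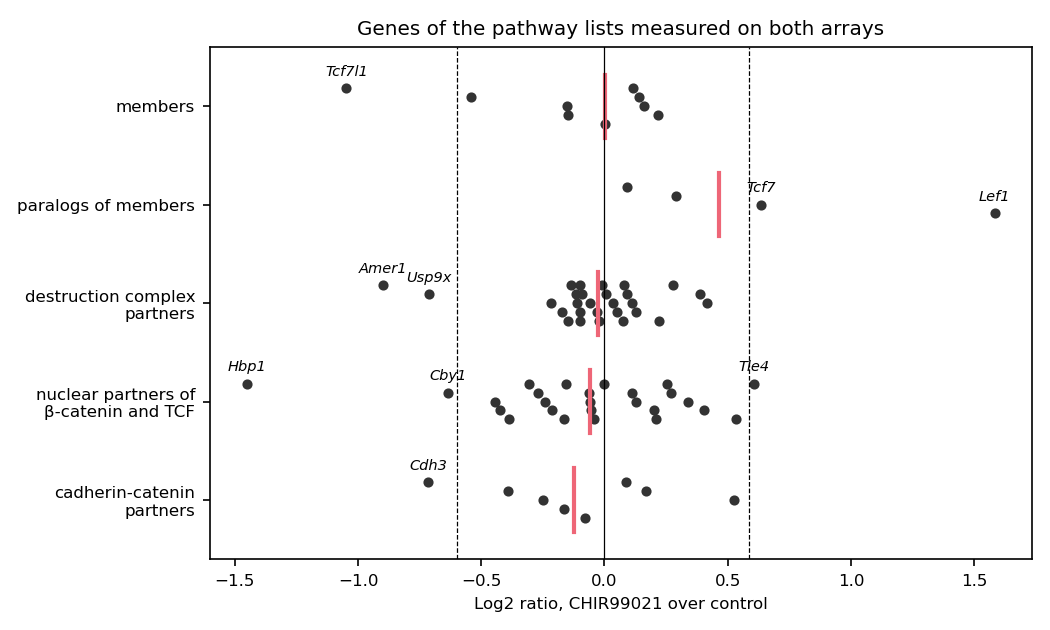
Log2 ratio, CHIR99021 over control, of each gene measured on both arrays in the members, their paralogs and the 3 partner lists, with red bars at the medians over these genes and dashed lines at the ratio limits. Genes past the limits are named. Hbp1 at -1.45, Tcf7l1 at -1.05 and Amer1 at -0.90 are the lowest, and Lef1 at 1.58 is the highest.

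**Figure D5:**
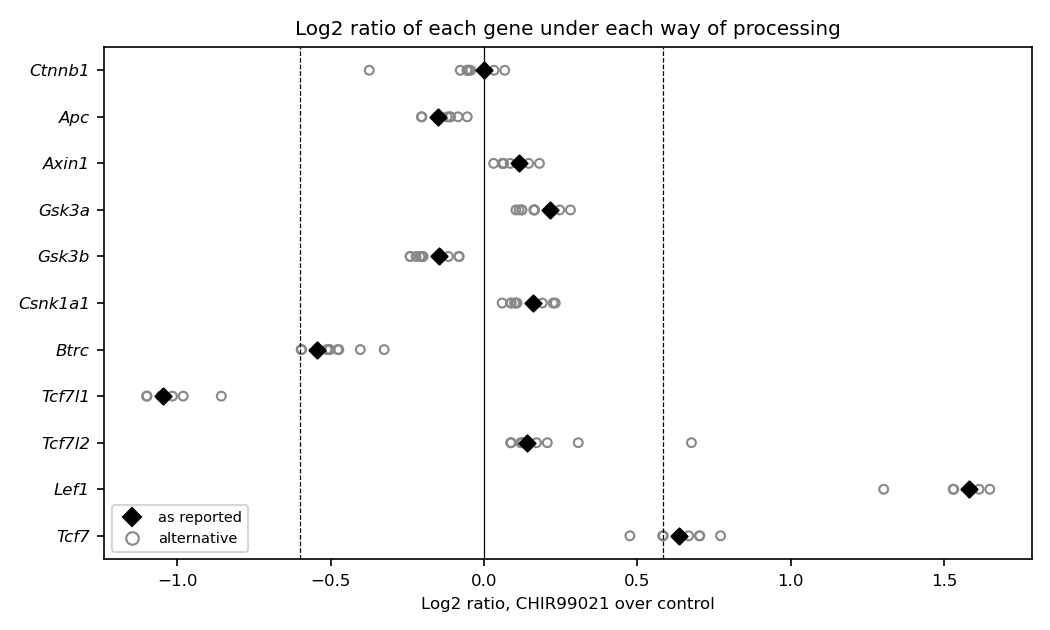
Log2 ratio of each member and of Lef1 and Tcf7 as reported (diamonds) and under each alternative way of processing (circles), with dashed lines at the ratio limits. Tcf7l1 stayed below the lower line and Lef1 above the upper line, Tcf7 lay on both sides of it, Ctnnb1 lay on both sides of 0, and Tcf7l2 crossed the upper line when the probe farthest from 0 was used.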

How the data were processed

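Total RNA of mDE6 cells was amplified, labelled with Cy3 and hybridised to 2 Agilent arrays, 1 per condition. The authors quantified the spots with Feature Extraction, version 10.7.1.1 per the file headers (9.5.1.1 in the submitters' processing notes), and deposited intensity values that were background-subtracted and detrended within each array, with substitute values for low signals, but not normalized between arrays. The header names a mouse design in mm9, whereas the Methods name a human array. A deposited table of normalized intensity values, whose method is not given in the sources used here, served as an alternative.

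From these, control spots and 101 outlier spots were left out, spots of a probe were averaged, signals were divided by the 75th percentile of their array, and 28066 probes, each well above background in either condition, were set against the criteria, using Python 3.11.15, numpy 2.4.6 and pandas 2.3.3. Limma 3.58.1 in R 4.3.3 gave the normexp correction with an offset of 50, and matplotlib 3.10.9 the figures. The setting called normexp also includes quantile normalization between the arrays. The Methods print the Z-score limit without a sign, and it was read as negative and mirrored for higher probes. How the authors computed it is not given in the sources used here. A limit on a ratio was taken against the higher of the probe's own signal and the lowest signal well above background on that array. No statistical test was made, since each condition has 1 array.

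The members and lists were chosen with earlier results of these data known. The genes named were all members and 5 paralogs, each list gene that met both criteria, and in each list the gene with the highest signal and those with the highest and lowest ratio measured on both arrays; genes past the ratio limit alone, Tle1, Tle2, Tle3 and the markers named were added after their values were seen. Probe targets matched the RefSeq table for 20 of 27 member probes, all with the same symbol. Probes were to be shown where their translation matched the RefSeq protein, but no protein sequences were used here, so coding probes with an open reading frame were shown instead. The array's own gene names were kept. A dental epithelial marker is not reported here.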

Additional observations from a re-analysis of the deposited data

How the results depend on the processing

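Under the 15 alternatives Tcf7l1 kept its sign in each and Lef1 in each that gave it a value. The small values of Ctnnb1, Apc2, Fbxw11 (with the probe farthest from 0) and the members' median changed sign. Tcf7l1 kept a ratio at or below 0.552 in each, and the count of members that met both criteria was 1 in all but 1 of them. It was 0 with a Z-score from 1 mean and SD over all probes. Scaling each array by 1 factor leaves the Z-scores unchanged, so those settings could alter a call only through the ratio. The count past the ratio alone went from 1 to 2 when the probe farthest from 0 stood for each gene, which added Tcf7l2. The count of list genes that met both criteria went from 3 (Lef1, Amer1, Hbp1) to 5 with the median and MAD, which added Usp9x and Cdh3, and to 1 with 1 mean and SD, where none of the 3 met them and Axin2 did. It was 2 with the earlier rows alone, where Lef1 had no tested probe, and with the probe farthest from 0 Bcl9l took the place of Hbp1. The lists held 5 paralogs and 29, 26 and 10 partners that were tested, and 5.84% of all genes tested met both criteria as reported. That share is not given for the other settings, so these counts are descriptions. The median log2 ratio of the members, 0.0013 as reported, was -0.0554 with quantile normalization, 0.0328 with median scaling, -0.0516 with no scaling, 0.0679 with spike-in scaling, -0.0500 with the percentile over probes measured in both conditions, -0.0513 in the authors' normalized table, -0.0432 with normexp, -0.0772 with the mean over probes and -0.15 with the probe farthest from 0. The ratio range over settings was 0.661 to 0.798 for Btrc, 1.06 to 1.60 for Tcf7l2, 2.47 to 3.14 for Lef1 and 1.39 to 1.71 for Tcf7. With no filter on dim probes the median log2 ratio of all genes was 0.18, against 0.02. With the earlier rows alone, Apc and Axin1 had no tested probe. Of the values of single genes, 114 moved further than the spot-to-spot SD and 72 did not. Alternatives for the paralogs and for the HMG box probe of Tcf7l2 were chosen after seeing the data. Signal over background limits Apc and Btrc most among the members, and Axin2, for which the control gives only a limit. No paired analysis was possible because control and CHIR99021 were 1 array each.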
